A study of Mus musculus with 5 samples.

Results

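The genes described here are 46 mouse genes of antioxidant defence, listed by name: the regulators of the response and the enzymes that make and recycle glutathione and thioredoxin, supply NADPH, remove superoxide and peroxides, or detoxify reactive molecules. Of the 46 genes, 43 were measured, that is, had a probe set with their symbol alone in the annotation of the array, among 19938 genes measured in this way. Prdx5, Prdx6 and G6pdx had no such probe set. The brightest probe set stood for a gene with several. Signals came from 5 mouse heart grafts, each hybridised to its own Mouse Gene 1.0 ST array from Affymetrix, and are log2 values made with RMA, so that a difference of 1 is a 2-fold difference in signal.

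Donors and recipients were C57BL/6 mice, 8 weeks old per the methods, with no allele or drug that differed between the groups. In the 3 I/R grafts, titled 2553, 2555 and 2557, the donor heart was kept in University of Wisconsin (UW) solution, a fluid for organ storage, for 18 h at 4 °C and was then joined to the vessels of the recipient's abdomen. In the 2 non-I/R grafts, titled 2554 and 2556, the heart was implanted without that storage. Both groups were therefore excised and transplanted, and no heart that had stayed in place was analysed here. The labels give harvest at 24 h after transplantation, and the text of the paper gives day 2. The comparison asks which antioxidant genes differ in a graft after long cold storage and reperfusion. The labels name no animal, litter or day, so p-values measure only the spread between these 5 samples, which may be partly technical.

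Cells control oxidants through the transcription factor NRF2, encoded by Nfe2l2. Its partner KEAP1 sends NRF2 to degradation until oxidants or electrophiles modify KEAP1, after which NRF2 pairs with a small MAF protein and binds antioxidant response elements near genes for glutathione synthesis, thioredoxin recycling, NADPH supply and quinone detoxification. Glutathione, a small peptide, and thioredoxin, a small protein, carry the electrons with which peroxidases and peroxiredoxins reduce peroxides, and NADPH reloads both of them. In the heart, the mitochondria of cardiomyocytes are a known source of superoxide, and reperfusion of stored tissue is known for the oxidants formed when oxygen returns.

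The core of the antioxidant response element is shown first, because genes with higher and with lower signal in I/R both held it. Promoter windows of 300 bases (250 before the start site and 50 after it) were read from RefSeq, build GRCm38.p6, for 40 of the 46 genes. Hmox1, Gclc, Gsr, Prdx6, Sod3 and Gsta4 had no window and were not searched. The letters TGACNNNGC were searched on both strands, where N is any base. They overlap those of an AP-1 site wherever TGAC is followed by TCA. At least 1 window held the core in 12 of the 40 genes (30.0%), and in 3781 of 27025 genes of the whole table (14.0%). The core lay before the start site in 9 of the 12, and over or after it in Srxn1, Pgd and Me1. The 6 stretches below are those of Nfe2l2 itself and of the 5 measured genes with the core before the start whose groups did not overlap. Each is written 5′ to 3′ on the strand of its gene, and capitals mark the core (as TGACNNNGC, or as its reverse complement where the core lies on the other strand).
Txnrd1, at chr10:82859084-82859152, plus strand: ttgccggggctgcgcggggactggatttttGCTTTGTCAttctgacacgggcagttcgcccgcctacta
Gclm, at chr3:122245393-122245461, plus strand: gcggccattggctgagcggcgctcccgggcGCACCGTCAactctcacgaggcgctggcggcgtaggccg
Nfe2l2, at chr2:75704865-75704913, minus strand: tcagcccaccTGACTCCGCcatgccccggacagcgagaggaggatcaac
Gsta3, at chr1:21240434-21240502, plus strand: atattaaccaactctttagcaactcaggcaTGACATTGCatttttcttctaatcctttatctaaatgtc
Mgst1, at chr6:138140441-138140509, plus strand: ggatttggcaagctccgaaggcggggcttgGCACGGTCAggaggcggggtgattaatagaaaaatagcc
Gstm5, at chr3:107895782-107895850, plus strand: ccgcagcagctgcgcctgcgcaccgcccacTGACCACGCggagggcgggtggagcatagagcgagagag

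The first base of the core lay 92 bases before the start in Txnrd1, 134 in Gclm, 240 in Nfe2l2, 121 in Gsta3, 56 in Mgst1 and 42 in Gstm5. Of the 11 measured genes with the core, 5 had a higher and 6 a lower mean signal in I/R, between -1.25 in Gsta3 and 1.33 in Srxn1 on the log2 scale. A match is a match of letters only, and no binding was measured here.

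I/R grafts had more signal than non-I/R grafts for Gclc, Gss and Gsr of glutathione synthesis and recycling, for Srxn1 and Txnrd1 of the thioredoxin system, for Pgd, Taldo1 and Tkt of the pentose phosphate pathway, for haem oxygenase 1 (Hmox1) and for the regulators Sqstm1 and Osgin1. They had less signal for 5 of the 10 glutathione transferases, the quinone reductase Nqo1, Prdx2 and Gpx4. In bulk tissue, fewer cells of a type and less RNA per cell cannot be told apart. The largest differences upward were Srxn1 (2.52-fold), Txnrd1 (2.02-fold), Hmox1 (1.88-fold), Taldo1 (1.86-fold) and Pgd (1.83-fold). The largest downward were Gsta3 (2.39-fold), Mgst1 (2.09-fold), Gpx3 (2.04-fold), Gstt1 (1.96-fold) and Gstk1 (1.91-fold). Gpx3 and Gstt1, unlike the other genes named in this paragraph, did not have an unadjusted p under 0.05 in limma.

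With limma, 11 of the 43 genes were higher in I/R at an unadjusted p under 0.05 (25.6%), where 7.64% of all 21789 probe sets tested were. A further 8 were lower (18.6%), against 7.35% of all probe sets. All probe sets include dim ones and ones with values tied between arrays, here and in the shares below. In a fit of the 10894 brighter probe sets, 25.9% had such a p (14.1% higher, 11.9% lower), against 51.2% of the 41 genes in it. Without tied probe sets it was 31.4% of 10074, against 57.1% of 35 genes. Relative to these probe sets, the excess was smaller than relative to all. No gene of the 43 passed a Benjamini-Hochberg adjusted p of 0.05 over all probe sets. The smallest adjusted p was 0.282 among the 43 and 0.18 among all probe sets, so that 0 probe sets passed and 3265 had an unadjusted p under 0.05. Words such as higher and lower therefore describe these grafts. Below, passing the unadjusted threshold means an unadjusted limma p under 0.05, and the p-values printed with each gene are those adjusted over all probe sets.

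Groups did not overlap, meaning that every I/R graft lay on one side of both non-I/R grafts, in 31 of the 43 genes. In 12 of them all I/R grafts were higher (27.9%, against 15.8% of all probe sets), and in 19 all were lower (44.2%, against 16.2%). For a single gene, an exact permutation test of 3 against 2 grafts cannot go below a two-sided p of 0.1. A difference of at least 2-fold at an unadjusted limma p under 0.05 was met by Srxn1 and Txnrd1 upward and by Gsta3 and Mgst1 downward, 9.3% of the 43 genes against 1.5% of all probe sets. The median log2 fold change over the 43 genes was -0.15, with 16 genes higher and 27 lower in mean, and over all probe sets it was -0.01.

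**Figure D1:**
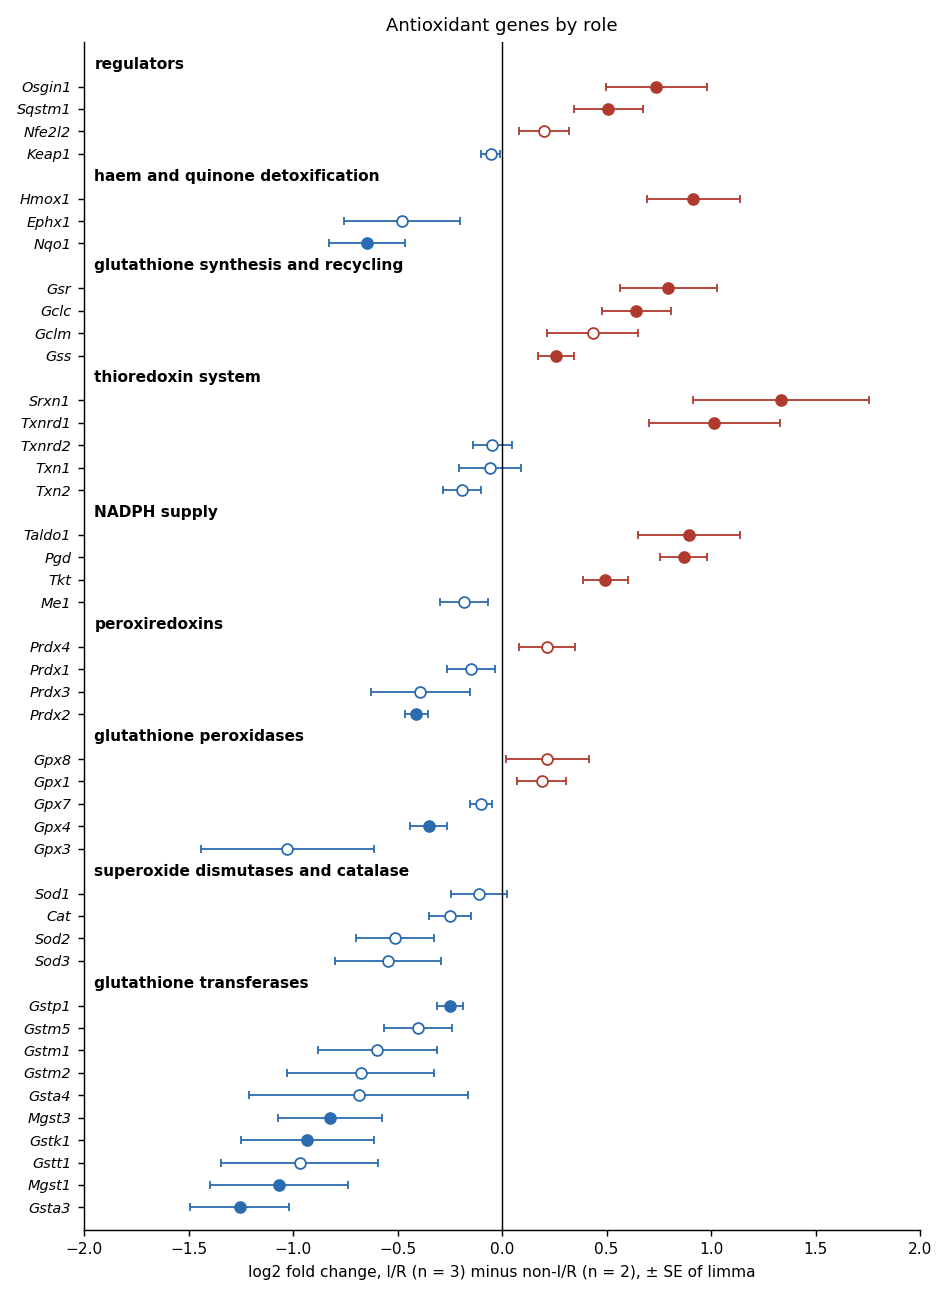
Log2 fold change of the 43 measured genes (I/R minus non-I/R, horizontal axis) by role, with the SE of limma as bars. Filled points had an unadjusted p under 0.05 and open points had not, and colours give the direction. All 4 genes of glutathione synthesis and recycling lie to the right of 0 and all 10 transferases to the left.

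The grafts of a group were not alike. Among the 31 genes whose groups did not overlap, non-I/R graft 2554 lay farther from the I/R grafts than 2556 did in 29. The gap between the groups was larger than the gap between the non-I/R grafts in 12 of the 31. Without 2554, the median of the 11 higher genes went from 0.79 to 0.58 and that of the 8 lower genes from -0.73 to -0.55. A fit without 2554 or without 2556 keeps a single non-I/R graft, so its p-values hold no spread between non-I/R grafts. They cannot show which genes keep a difference, and the same holds where passing without 2554 is given below. Of the 19 genes, 13 passed without 2553, 8 without 2555 and 9 without 2557. Pgd, Gsta3, Prdx2, Hmox1, Tkt and Gpx4 passed with each I/R graft left out in turn. None of the 19 genes could change direction with a graft left out, because none of them had overlapping groups. Grafts also differed in the atrial gene Myl7, at 10.67 in 2554 and 5.52 in 2556, against 6.72, 11.08 and 8.57 in 2553, 2555 and 2557. With 2554 and 2555 both left out, 9 of the 43 genes had a p under 0.05 (20.9%, against 12.4% of all probe sets), 5 of them among the 19. The share of the atria in each graft and its part in these results were not tested.

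**Figure D2:**
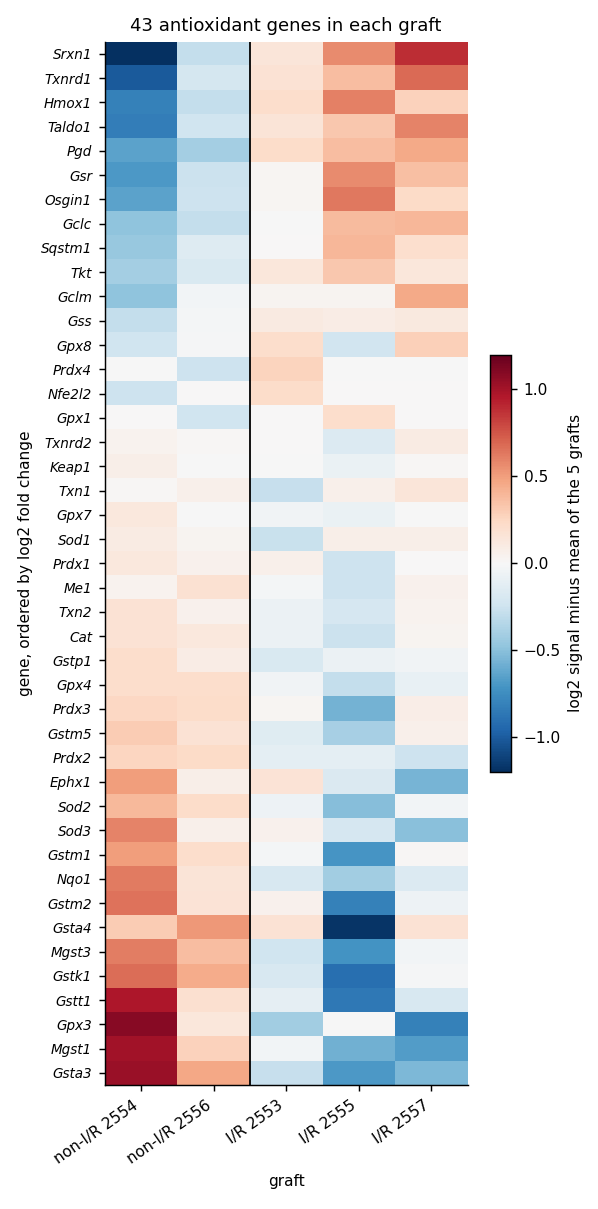
Signal of the 43 genes in each graft (columns), as log2 signal minus the mean of the 5 grafts (colour, as the bar shows), ordered by log2 fold change. Graft 2554 has the strongest colours of the non-I/R grafts, Gsta4 stands low in 2555 alone, and Keap1 and Txnrd2 are near 0 in all grafts.

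Values below are log2 signals, given for non-I/R grafts 2554 and 2556 and then for I/R grafts 2553, 2555 and 2557, in that order. The regulators come first. Nfe2l2 had 11.00 and 11.26 in non-I/R and 11.47, 11.26 and 11.26 in I/R, a difference of 0.20 ± 0.12 (SE). Its groups touched, since 3 of the 5 grafts had the same value. Keap1, the partner that marks NRF2 for degradation, had 8.52 and 8.45 against 8.45, 8.37 and 8.47, a difference of -0.05 ± 0.05 (SE). All 5 grafts lay close together, and the groups overlapped.

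Sqstm1 encodes p62, an autophagy receptor that binds KEAP1. It had 12.22 and 12.53 in non-I/R and 12.69, 13.08 and 12.88 in I/R. Osgin1, a gene known to be induced by oxidative stress, had 7.40 and 7.79 against 8.06, 8.67 and 8.27. All 3 I/R grafts exceeded both non-I/R grafts for these genes. The log2 fold change in limma was 0.51 for Sqstm1 (SE 0.16, adjusted p = 0.315) and 0.74 for Osgin1 (SE 0.24, adjusted p = 0.316), and without 2554 it was 0.36 and 0.54, with neither gene past the unadjusted threshold.

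Glutathione synthesis and recycling formed the one role in which all genes were higher in I/R with no overlap of the groups. Of all probe sets, 15.8% were higher in that way. Gclc is the catalytic subunit of glutamate-cysteine ligase, the limiting step of glutathione synthesis, and Gclm is its modifier subunit. Gclc had 9.03 and 9.23 against 9.51, 9.89 and 9.92. Gclm had 10.62 and 11.07 against 11.14, 11.14 and 11.55. The lowest I/R value of Gclm was 0.07 above the higher non-I/R graft, and that of Gclc 0.28 above it. Gss, glutathione synthetase, which adds glycine in the final step, had 8.01 and 8.27 against 8.40, 8.38 and 8.41. Gsr, the reductase that regenerates glutathione with NADPH, had 9.81 and 10.24 against 10.53, 11.07 and 10.86. For Gss the I/R grafts lay almost on top of each other, and for Gsr they were farther apart.

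Of the 4 genes Gsr, Gclc and Gss passed the unadjusted threshold. In limma the log2 fold change was 0.79 for Gsr (SE 0.23, adjusted p = 0.297), 0.64 for Gclc (SE 0.17, adjusted p = 0.29), 0.43 for Gclm (SE 0.22, adjusted p = 0.44) and 0.26 for Gss (SE 0.09, adjusted p = 0.322). The median of these 4 genes was 0.54. Without 2554 the median was 0.38, with Gsr at 0.58, Gclc at 0.54, Gclm at 0.21 and Gss at 0.13. For Gss the gap between the groups was 0.11, less than the 0.25 between its non-I/R grafts.

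The thioredoxin system was split. Srxn1, sulfiredoxin, which repairs over-oxidised peroxiredoxins, had the largest difference of the 43 genes. Its signal was 8.71 and 9.75 in non-I/R and 10.18, 10.60 and 10.91 in I/R. Txnrd1, the cytosolic thioredoxin reductase, a selenoprotein, had 9.40 and 10.19 against 10.57, 10.77 and 11.09. In both genes 2554 was far below 2556, by more than the step from 2556 to the lowest I/R graft. The log2 fold change was 1.33 for Srxn1 (SE 0.42, adjusted p = 0.311) and 1.02 for Txnrd1 (SE 0.31, adjusted p = 0.308) in limma. It was 0.82 and 0.62 without 2554, and neither then passed the unadjusted threshold, as both did with all grafts.

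The thioredoxins themselves, which carry the electrons, had smaller differences. Txn1, the cytosolic form, had 13.29 and 13.33 against 13.00, 13.33 and 13.42, and its groups overlapped. Txn2, the mitochondrial form, had 11.37 and 11.24 against 11.12, 10.99 and 11.23, with all I/R grafts lower by a narrow margin. Txnrd2, the mitochondrial reductase, had 7.73 and 7.71 against 7.70, 7.52 and 7.79 and overlapped. The log2 fold changes were -0.06 ± 0.15 for Txn1, -0.19 ± 0.09 for Txn2 and -0.05 ± 0.09 for Txnrd2 (SE), none past the unadjusted threshold. The sign of Txn1 and of Txnrd2 was not stable, as Txn1 became 0.11 with quantile normalization and 0.01 with array weights, and Txnrd2 became 0.01 with array weights.

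NADPH is the source of electrons for Gsr and Txnrd1. Pgd, 6-phosphogluconate dehydrogenase, which makes NADPH in the pentose phosphate pathway, had 10.22 and 10.46 in non-I/R and 11.08, 11.23 and 11.31 in I/R. The gap between the groups was larger than the range within either group. Taldo1, transaldolase of the same pathway, had 8.58 and 9.17 against 9.57, 9.74 and 10.01. Tkt, transketolase, had 7.87 and 8.10 against 8.41, 8.61 and 8.41. Me1, malic enzyme, another cytosolic source of NADPH, had 10.51 and 10.64 against 10.44, 10.21 and 10.51 and overlapped.

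The log2 fold change in limma was 0.87 for Pgd (SE 0.11, adjusted p = 0.282), 0.89 for Taldo1 (SE 0.24, adjusted p = 0.29) and 0.49 for Tkt (SE 0.11, adjusted p = 0.284), and Me1 was at -0.18 (SE 0.12, adjusted p = 0.478). Pgd, Taldo1 and Tkt passed the unadjusted threshold, Pgd with the smallest p of the 43 genes. Without 2554 they were at 0.75, 0.60 and 0.38, and Pgd alone passed.

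**Figure D3:**
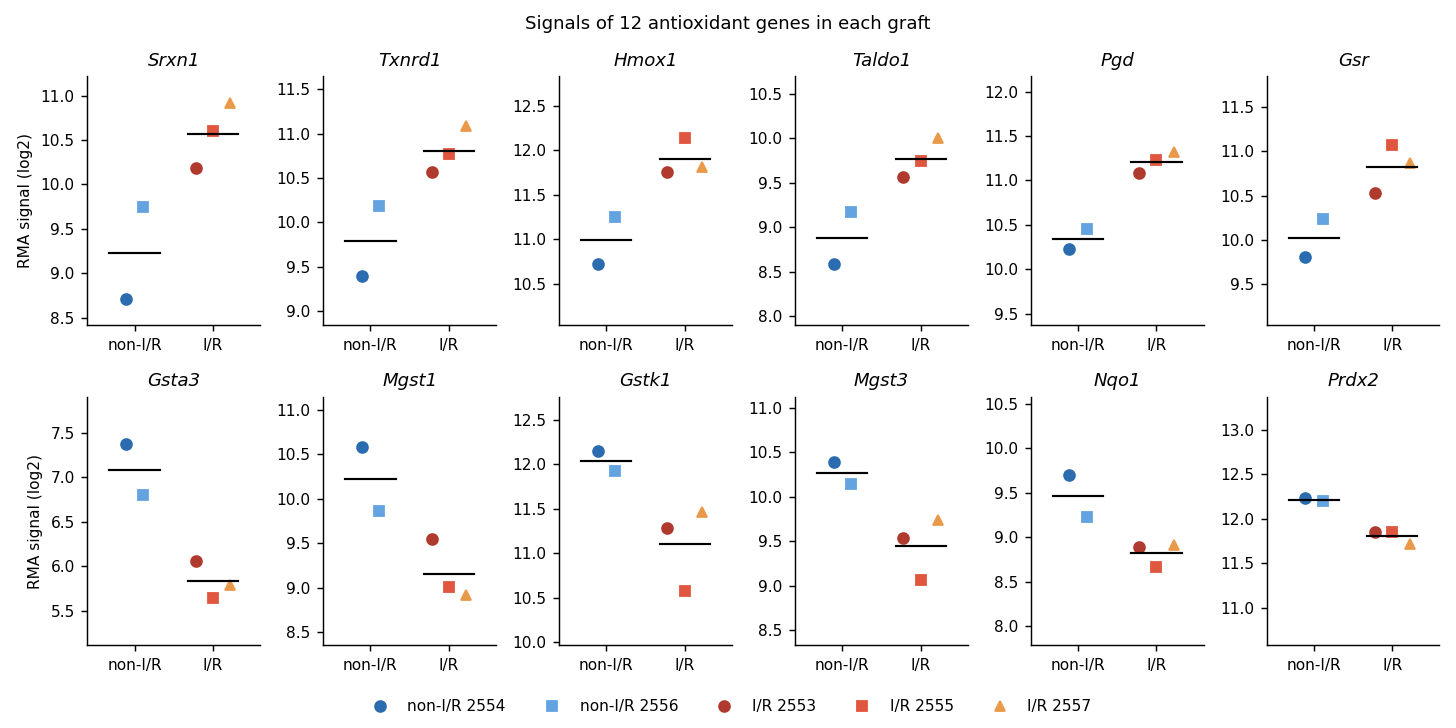
Log2 RMA signal (vertical axes, all of the same span) of 12 genes in the 2 non-I/R and 3 I/R grafts, with a point for each graft and a line at the group mean. The upper row lies higher in I/R and the lower row lower, with no overlap between the groups in any panel.

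Detoxification of haem and quinones went both ways. Hmox1, haem oxygenase 1, which breaks haem down to biliverdin, iron and carbon monoxide, had 10.72 and 11.25 in non-I/R and 11.75, 12.14 and 11.82 in I/R. Nqo1, the NAD(P)H quinone reductase often used as a marker of NRF2 activity, had 9.70 and 9.23 against 8.89, 8.66 and 8.91. All I/R grafts were thus above the non-I/R grafts for Hmox1 and below them for Nqo1. Ephx1, microsomal epoxide hydrolase, had 8.98 and 8.54 against 8.63, 8.29 and 7.91 and overlapped. In limma the log2 fold change was 0.91 for Hmox1 (SE 0.22, adjusted p = 0.286), -0.65 for Nqo1 (SE 0.18, adjusted p = 0.293) and -0.48 for Ephx1 (SE 0.28, adjusted p = 0.477). Without 2554 it was 0.65, -0.41 and -0.26, with none past the unadjusted threshold, which Hmox1 and Nqo1 passed with all grafts.

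Glutathione transferases join glutathione to reactive molecules. All 10 were lower in I/R with no overlap of the groups, where 16.2% of all probe sets were. Of the 10, 5 had an unadjusted p under 0.05, where 7.35% of all probe sets were lower at that threshold. Their median log2 fold change was -0.76, and -0.64 without 2554. Gsta3, an alpha-class transferase, had 7.37 and 6.80 in non-I/R and 6.06, 5.64 and 5.79 in I/R. Mgst1, a microsomal transferase, had 10.59 and 9.86 against 9.55, 9.005 and 8.91. For both, 2554 stood highest, and 2556 still exceeded all I/R grafts.

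Gstk1, the kappa-class transferase of mitochondria and peroxisomes, had 12.15 and 11.93 against 11.29, 10.58 and 11.46. Mgst3, another microsomal transferase, had 10.40 and 10.15 against 9.54, 9.06 and 9.74. Here the non-I/R grafts lay close together, and 2555 was the lowest I/R graft. Gstp1, the pi-class transferase, had 11.18 and 11.06 against 10.79, 10.90 and 10.92. The log2 fold change in limma was -1.25 for Gsta3 (SE 0.24, adjusted p = 0.282), -1.07 for Mgst1 (SE 0.33, adjusted p = 0.308), -0.93 for Gstk1 (SE 0.32, adjusted p = 0.327), -0.82 for Mgst3 (SE 0.25, adjusted p = 0.303) and -0.25 for Gstp1 (SE 0.06, adjusted p = 0.289). Without 2554, Mgst1 was at -0.70, the other 4 lay between -0.97 and -0.19, and Gsta3 alone passed.

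The other 5 transferases had log2 fold changes between -0.97 in Gstt1, the theta-class form, and -0.40 in Gstm5, with unadjusted p-values in limma between 0.0642 and 0.261. Gstt1 had 8.73 and 7.95 against 7.65, 6.90 and 7.56, and its log2 fold change was -0.58 without 2554. Gsta4, which conjugates the lipid peroxidation product 4-hydroxynonenal, had 11.00 and 11.22 against 10.88, 9.52 and 10.88. Its log2 fold change of -0.69 rested on 2555, as it was -0.24 without that graft. Gstm1 and Gstm2 likewise went from -0.60 and -0.68 to -0.36 and -0.41 without 2555, and Gstm2 was at -0.43 without 2554. Graft 2555 was the lowest of the 5 in 14 of the 19 genes that were lower in all I/R grafts. Gstm1, Gstm2 and Gstm5 are close relatives of each other, and probes that fit more than 1 of them cannot be told apart in these values.

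Peroxiredoxins and glutathione peroxidases reduce peroxides. Prdx2, an abundant cytosolic peroxiredoxin, had 12.23 and 12.20 in non-I/R and 11.85, 11.85 and 11.72 in I/R. In this probe set the grafts of each group lay close together and well apart from the other group. Its log2 fold change was -0.41 in limma (SE 0.05, adjusted p = 0.282), and -0.40 without 2554. A dimmer probe set of Prdx2 gave -0.34 ± 0.10 (SE) and also passed the unadjusted threshold. It had 10.13 and 9.85 against 9.72, 9.58 and 9.65, so its non-I/R grafts lay farther from each other than the groups did. Both probe sets carry the symbol Prdx2 alone, and which of them reads the Prdx2 gene itself was not tested. Prdx3, the mitochondrial form, had 11.54 and 11.51 against 11.32, 10.72 and 11.37, a difference of -0.39 ± 0.24 (SE) that was -0.18 without 2555. Prdx1 and Prdx4 had -0.15 and 0.21, and both overlapped.

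Gpx4, the selenoprotein that reduces lipid peroxides in membranes and holds back ferroptosis, had 10.99 and 11.00 in non-I/R and 10.74, 10.50 and 10.69 in I/R. All I/R grafts were lower. Its log2 fold change was -0.35 in limma (SE 0.09, adjusted p = 0.286), and a dimmer probe set gave -0.30 ± 0.05 (SE) and passed as well. Gpx4 was at -0.35 without 2554 as well, where it no longer passed the unadjusted threshold. Gpx3, the secreted selenoprotein peroxidase of plasma, had the largest difference of the peroxidases, with 12.16 and 11.21 against 10.65, 11.07 and 10.26. The non-I/R grafts differed from each other by almost as much as the group means, and Gpx3 had -1.03 in limma (SE 0.41, adjusted p = 0.37) and -0.55 without 2554. Gpx1, Gpx7 and Gpx8 overlapped, between -0.10 and 0.22.

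Superoxide dismutases turn superoxide into hydrogen peroxide, and catalase removes that peroxide. All 4 genes had lower means in I/R, and 0 of the 4 passed the unadjusted threshold. The groups did not overlap in 3 of them, where 16.2% of all probe sets had all I/R grafts lower. Sod3, the extracellular form, had the largest difference, -0.55 ± 0.25 (SE), with 8.89 and 8.36 in non-I/R and 8.35, 8.10 and 7.80 in I/R, and -0.28 without 2554. Sod2, the mitochondrial form, had 12.48 and 12.31 against 12.02, 11.57 and 12.05. Sod2 was thus clear of the non-I/R grafts in every I/R graft, whereas for Sod3 graft 2553 was only 0.01 below 2556. The difference was -0.51 ± 0.19 for Sod2 (SE, adjusted p = 0.342 in limma) and -0.25 ± 0.10 for Cat (SE, adjusted p = 0.373 in limma). Sod1, the cytosolic form, was at -0.11 and overlapped, and became 0.00 without 2553.

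Mitochondrial and cytosolic enzymes of the same step are set side by side without a test. The log2 fold change of the mitochondrial form was -0.05 for thioredoxin reductase (Txnrd2) and -0.51 for superoxide dismutase (Sod2), against 1.02 and -0.11 for the cytosolic Txnrd1 and Sod1. The thioredoxins had no settled order, as mitochondrial Txn2 was at -0.19 and cytosolic Txn1 at -0.06, but at -0.07 and -0.12 without 2554 and 2555. Mitochondrial Prdx3, at -0.39, lay between the cytosolic peroxiredoxins Prdx2, at -0.41, and Prdx1, at -0.15. This order was not settled either, as dimmer probe sets of Prdx2 and Prdx1 gave -0.34 and -0.10, both above Prdx3. Genes of oxidative phosphorylation, which code for the respiratory chain of mitochondria, were lower in I/R in 24 of 24 measured. Their groups did not overlap in any of the 24, where 16.2% of all probe sets had all I/R grafts lower. Their median was -0.49, and -0.42 without 2554. An unadjusted p under 0.05 was reached by 20 of the 24, where 7.35% of all probe sets were lower at that threshold. Their mean log2 signal was between 12.14 and 12.28 in the non-I/R grafts and between 11.47 and 11.84 in the I/R grafts. The part of this shift in the mitochondrial antioxidant genes was not tested.

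Markers of cell types also differed between the groups. The 13 cardiomyocyte markers, among them Tnnt2 of the thin filament, were bright in all grafts, with mean log2 signals between 12.62 and 12.76 in the non-I/R grafts and between 11.91 and 12.21 in the I/R grafts. All 13 were lower in mean in I/R, 10 with an unadjusted p under 0.05, where 7.35% of all probe sets were. Their median was -0.54, and -0.46 without 2554. Of 14 neutrophil markers 10 were higher in mean, with a median of 0.77, and 0.68 without 2554. At an unadjusted p under 0.05, 6 were higher and 1 lower, where 7.64% and 7.35% of all probe sets were. Their mean log2 signal was between 8.19 and 8.34 in the non-I/R grafts and between 8.57 and 9.09 in the I/R grafts, all I/R grafts being higher. The markers did not all run the same way. Mmp9, Ngp and Mmp8 were higher in every I/R graft, at 1.45, 0.79 and 0.55, and Lcn2 was lower in every I/R graft, at -0.59, while Mpo, Elane, Camp and Ltf lay between 5.18 and 6.26 in all grafts and overlapped. The median was -0.10 over 12 macrophage markers, 0.12 over 10 endothelial markers and -0.20 over 8 fibroblast markers. It was 0.50 over 5 smooth muscle markers, -0.08 over 8 markers of T, NK and B cells, 0.00 over 4 erythroid markers, -0.02 over 5 adipocyte markers and 0.25 over 4 atrial markers. Without 2554 the macrophage median turned to 0.22, the fibroblast one was -0.04, the smooth muscle one 0.27 and the atrial one 1.74, so these lists have no settled level. The part of cell composition in the antioxidant genes was not tested.

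**Figure D4:**
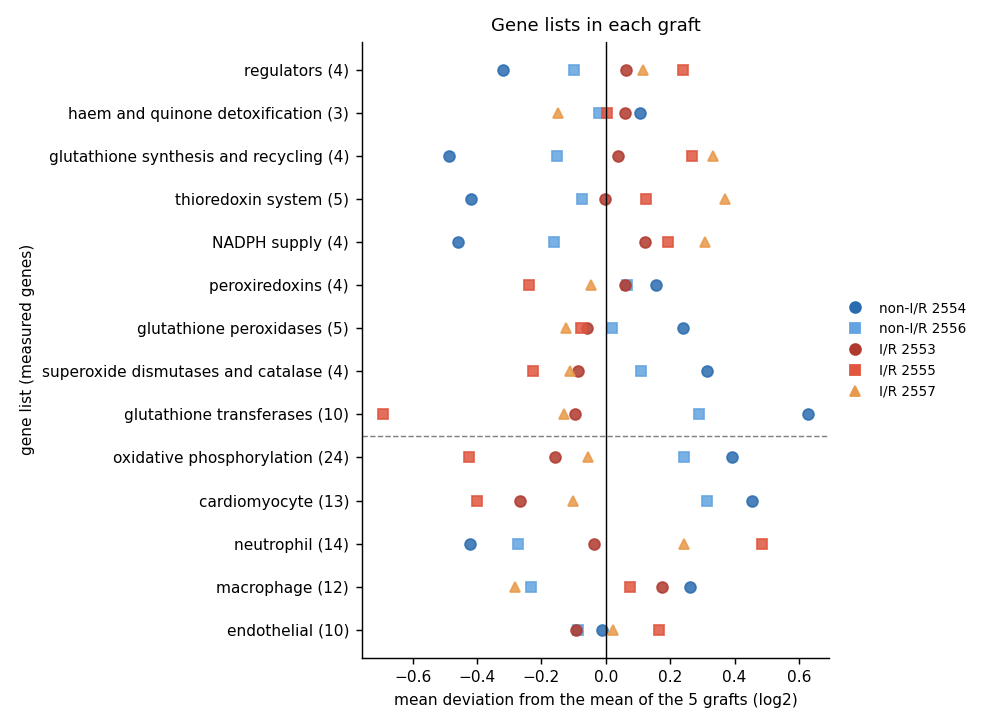
Mean deviation of each gene list in each graft from the mean of the 5 grafts (log2, horizontal axis), with the number of measured genes in brackets, roles of the antioxidant genes above the dashed line and other lists below it. Glutathione transferases lie at 0.63 and 0.29 in the non-I/R grafts and at -0.10, -0.69 and -0.13 in the I/R grafts, and oxidative phosphorylation and cardiomyocyte genes have the same order of groups.

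Beyond the 46 genes, lists of 97 related genes held 94 that were measured. Of these 10 were higher (10.6%, against 7.64% of all probe sets) and 13 lower in I/R (13.8%, against 7.35%) at an unadjusted p under 0.05 in limma, with a median of -0.01 and a smallest adjusted p of 0.273. Without 2554, 6 of these 23 passed, namely Slc3a2, Oplah, Ugdh, Akr1b8, Eefsec and Aox1. None of the lists was tested as a set.

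Cystine uptake feeds glutathione synthesis. Slc7a11, the cystine transporter, had 6.66 and 7.15 in non-I/R and 8.26, 8.89 and 7.90 in I/R, all I/R grafts being higher. Its partner subunit Slc3a2 had 11.82 and 11.97 against 12.32, 12.30 and 12.17. The log2 fold change in limma was 1.45 for Slc7a11 (SE 0.37, adjusted p = 0.286) and 0.37 for Slc3a2 (SE 0.07, adjusted p = 0.282). Oplah, which returns oxoproline to glutamate in the breakdown of glutathione, had 9.04 and 8.74 against 7.86, 7.28 and 7.56, and Hagh, a glyoxalase, was also lower, at -0.34 (SE 0.07, adjusted p = 0.284 in limma). Oplah was at -1.33 (SE 0.22, adjusted p = 0.282 in limma). Of the 18 measured genes of this list, these 2 higher and 2 lower ones passed the unadjusted threshold. Gsto1, an omega-class transferase in this list, was at 0.09 and overlapped, unlike the 10 transferases above.

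Of 10 MAF and BACH partners and relatives of NRF2, Maff alone passed the unadjusted threshold, at 0.97 (SE 0.22, adjusted p = 0.284 in limma). It had 6.76 and 7.27 in non-I/R and 7.76, 8.16 and 8.03 in I/R. Mafk and Mafg, the other small MAF proteins, and Bach1, a repressor at the same elements, were also higher in every I/R graft, at 0.63, 0.42 and 0.36, without passing it. Mafk was at 0.32 without 2554, and Bach1 at 0.20 without 2556.

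Among 13 other haem, iron and quinone genes linked to NRF2, Ugdh, which makes UDP-glucuronate, was at 0.70 (SE 0.09, adjusted p = 0.282 in limma) and Akr1b8, an aldo-keto reductase, at 0.69 (SE 0.11, adjusted p = 0.282 in limma). Hmox2, the constitutive haem oxygenase, was at -0.35 (SE 0.07, adjusted p = 0.284 in limma). Hmox2 had 10.67 and 10.57 in non-I/R and 10.36, 10.17 and 10.29 in I/R, opposite in direction to Hmox1. These 3 were the genes of the list past the unadjusted threshold.

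Of 15 other NADPH sources, Nadk, the kinase that makes NADP from NAD in the cytosol, was at 0.77 (SE 0.15, adjusted p = 0.282 in limma) and Rpia of the pentose phosphate pathway at 0.34 (SE 0.12, adjusted p = 0.322 in limma). The mitochondrial sources Nnt, the transhydrogenase, and Idh2, isocitrate dehydrogenase, were at -0.66 (SE 0.23, adjusted p = 0.328 in limma) and -0.51 (SE 0.15, adjusted p = 0.296 in limma). Nadk had 9.79 and 9.80 in non-I/R and 10.31, 10.64 and 10.74 in I/R, and Nnt had 12.06 and 11.99 against 11.64, 11.47 and 10.98. No other gene of this list passed the unadjusted threshold, and Pgls, Rpe and H6pd, which act in pentose phosphate metabolism, overlapped at -0.08, 0.15 and 0.19.

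The 17 thioredoxin and glutaredoxin relatives held 5 genes that were lower with an unadjusted p under 0.05 (against 7.35% of all probe sets) and none that was higher. The largest were Sesn1, a sestrin, at -1.15 (SE 0.33, adjusted p = 0.295 in limma), and the methionine sulfoxide reductases Msrb2 at -0.96 (SE 0.30, adjusted p = 0.308 in limma) and Msrb1 at -0.93 (SE 0.28, adjusted p = 0.306 in limma). Without 2554 they were at -0.78, -0.58 and -0.55. Glrx5, of iron-sulfur cluster assembly, was at -0.36 (SE 0.12, adjusted p = 0.32 in limma).

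Selenoproteins need their own elongation factor and RNA-binding protein. Eefsec, that factor, had 8.47 and 8.44 in non-I/R and 8.91, 8.88 and 8.95 in I/R, with grafts of a group almost equal, and the log2 fold change was 0.45 (SE 0.03, adjusted p = 0.273 in limma). Secisbp2, the RNA-binding protein, was at 0.32 (SE 0.07, adjusted p = 0.284 in limma), and of the 9 genes of this list these alone passed the unadjusted threshold. Selenop, the selenium carrier of plasma, was lower in all I/R grafts, at -0.79 (SE 0.29, adjusted p = 0.343 in limma), and at -0.48 without 2554.

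Of 12 genes for enzymes that produce oxidants or for parts of them, Rac2, part of the phagocyte NADPH oxidase, was at 0.60 (SE 0.16, adjusted p = 0.29 in limma). Rac2 had 9.23 and 9.29 in non-I/R and 9.69, 10.13 and 9.75 in I/R. Maob, a monoamine oxidase of mitochondria, was at -1.47 (SE 0.51, adjusted p = 0.33 in limma) and Aox1, aldehyde oxidase, at -1.45 (SE 0.40, adjusted p = 0.29 in limma). Without 2554 these were at 0.57, -0.92 and -0.86. These 3 and Nox1 passed the unadjusted threshold. Nox1 was dim, between 4.27 and 4.42 in all grafts, with -0.10 (SE 0.03, adjusted p = 0.315 in limma). Of the other measured parts of the phagocyte oxidase, Cybb and Cyba overlapped, at 0.08 and 0.22. Ncf1 and Ncf4 were higher in every I/R graft, at 0.76 and 0.73, without passing the unadjusted threshold.

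Scaling the arrays in another way gave more calls among the 43 genes and among all probe sets alike. Against 11 higher and 8 lower as deposited, with 15% of all probe sets called, median-centred arrays gave 11 and 12 (17.8% of all), quantile normalization 10 and 11 (17.3%) and cyclic loess 11 and 12 (16.9%). The methods' t-test gave 5 and 4 of the 43 genes at the same threshold, with 9.24% of all probe sets, and 0 of the 43 after adjustment. Those 9 genes were Hmox1, Taldo1, Pgd, Gclc and Tkt upward and Gsta3, Prdx2, Gpx4 and Gstp1 downward.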

How the data were processed

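Total RNA of 5 heart grafts was hybridised to Affymetrix Mouse Gene 1.0 ST arrays. The authors deposited log2 values made with Partek and RMA (versions not given in the sources used here), which corrects background, quantile-normalizes the arrays and summarises probe sets, and can hide a shift shared by most genes. The table holds 35556 probe sets, with array medians between 6.58 and 6.65. The number of arrays limits the precision. Of the probe sets, 21789 carried 1 gene symbol in the annotation of the platform, 1621 carried several and 12146 were not listed. Of the gene IDs, 21698 were found in the RefSeq table of GRCm38.p6. Values were tied between arrays in 11715 of the 21789 probe sets and in 8 of the 43 genes. The cause was not tested.

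Groups were compared by lmFit and eBayes (prior df 0.824) of limma 3.58.1, run under R 4.3.3, over all 21789 probe sets, with Benjamini-Hochberg adjustment. The methods name ANOVA, which with 2 groups is an equal-variance t-test, and it was run as an alternative. A fold change is 2 to the power of the log2 difference. The genes and lists were chosen with earlier results of these data known, and Gsta3 and Slc7a11 are also among the altered genes the paper lists, so counts over lists are descriptions. Values in every graft were given for Nfe2l2, Keap1, genes with an unadjusted p under 0.05 and no overlap of the groups, and the largest of each role, with others where a pair or a role needed them. From the related lists, up to 4 genes each under that p, and others beside them, were named. The fit was tested on simulated data with known differences. Those data had independent noise, with no tied values and no shift shared by the genes of a graft. They therefore cannot show how the fit behaves with these features. Alternatives were the t-test, other eBayes settings, array weights, other normalizations, filters, other choices of probe set, and leaving out grafts. Promoters were read with pandas 2.3.3 in Python 3.11.15, and figures were drawn with matplotlib 3.10.9.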

Additional observations from a re-analysis of the deposited data

How the results depend on the processing

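With 3 and 2 grafts, the count of the 43 genes with an unadjusted p under 0.05 was 19 (44.2%, against 15% of all probe sets). It was 4 without 2554 (9.3% against 8.71%), so that in that fit the share was close to that of all probe sets, and at most 15 with another graft left out (34.9% against 19.0%, without 2556). The shares were 30.2% against 13.3% without 2553, 27.9% against 12.2% without 2555 and 25.6% against 9.48% without 2557. The count was 9 with the t-test (20.9% against 9.24%) and 9 without 2554 and 2555, the grafts with the highest Myl7 (20.9% against 12.4%). Over all probe sets 3265 became 2014 with the t-test (2 after adjustment), 1898 without 2554 and 4147 without 2556, the lowest and highest with 1 graft left out. Leaving out grafts gives fewer samples, and without 2554 or 2556 the p-values hold no spread between non-I/R grafts. The median of -0.15 over the 43 genes became -0.25 without tied probe sets, a fit that held 35 of them. It lay between -0.20 and -0.10 with 1 graft left out. The other alternatives kept the counts of calls within 1.5 times. Among them, the shares were 51.2% against 25.9% in the fit of brighter probe sets and 57.1% against 31.4% without tied probe sets. None of the 19 genes changed sign, which could not happen by leaving out grafts, because the groups of these genes did not overlap. Signs turned in 4 genes near 0. Without 2554 and 2555, Keap1 was at 0.0103 and Txnrd2 at 0.0397. With array weights Txn1 was at 0.0134 and Txnrd2 at 0.0075, and with quantile normalization Txn1 was at 0.11. With 1 graft left out, Sod1 lay between -0.168 and 0.0023, Txn1 between -0.144 and 0.0658 and Txnrd2 between -0.108 and 0.0268. The causes were not tested. No paired analysis was possible because the replicate numbers only name the grafts in order within each group, and no label ties them to a litter, batch or day.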
